A study of Homo sapiens with 28 samples.

Results

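Integrins are the cell-surface receptors that attach cells to the extracellular matrix, and 10 of their subunits were described here: ITGA1, ITGA2, ITGA3, ITGA4, ITGA5, ITGA6, ITGAV, ITGB1, ITGB3 and ITGB5. They were taken by gene symbol from a table of 35488 genes, where each symbol had 1 row. A mean normalised count of at least 10 over the 28 libraries was required for testing. Of the 10 subunits 8 reached it, and ITGA4 and ITGB3, which lay below it, are described from their reads. A normalised count is the number of reads of a gene divided by the size factor of its library.

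Each integrin is a pair of an alpha and a beta subunit, and the pairing sets the ligand. ITGAV joins ITGB3, ITGB5 or ITGB1 in receptors for the Arg-Gly-Asp motif of vitronectin and fibronectin, and ITGA5 joins ITGB1 in the classical fibronectin receptor. ITGA3 and ITGA6 give laminin receptors with ITGB1, ITGA1 and ITGA2 give collagen receptors with it, and ITGA4 with ITGB1 binds VCAM1 and fibronectin. Talins and kindlins bind the beta tail from inside the cell and switch the pair to its binding form, and adaptors such as paxillin and vinculin then link it to actin at focal adhesions. Ewing sarcoma cells grow as poorly spread, weakly adherent cells, and the fusion transcription factor EWS-FLI1 drives them.

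The samples were SK-N-MC cells, an established Ewing sarcoma line, each carrying a doxycycline-inducible short hairpin RNA. Doxycycline at 100 ng/ml was given to every culture, controls included, for 24 or 48 h. The hairpins were shScramble (control), shFLI1 (against EWS-FLI1), and shCHD4#1 and shCHD4#2, which target CHD4, an ATPase subunit of the NuRD chromatin remodelling complex. At each time there were 5 shScramble libraries and 3 of each other hairpin, called biological replicates in the labels. The 48 h control samples carry a genotype tag for CHD4 knockdown, which their titles contradict, and CHD4 in them (11605 ± 1563) was near its 24 h control level (11550.1 ± 1236).

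Recovered reads ranged from 46102707 to 64775441 per library, and all 9 Ewing sarcoma markers checked were present in every group. A first kind of library, replicates 1 and 2 of the control and CHD4 hairpins (12 in all), held 0.313% to 0.388% of reads in processed pseudogenes, against 0.223% to 0.283% in the other 16, the second kind. All shFLI1 libraries were of the second kind, and at each time each CHD4 hairpin had 2 libraries of the first kind and 1 of the second. A second-kind value for a CHD4 hairpin below is therefore that of 1 library against 3 controls, with no replicate of its own, and is given without a p. The shFLI1 libraries at 48 h had 22.1% to 22.5% of their reads in mitochondrial ribosomal RNA, where the controls had 16.2% to 18%. At 24 h the shares were 18% to 19.9% and 15.2% to 17.8%. The part of RNA composition in the shFLI1 results was not tested. In bulk RNA, fewer cells that express a gene and less of its RNA per cell cannot be told apart.

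The targets followed their hairpins. At 24 h FLI1 averaged 4153 ± 408 (SD) in controls and 1856 ± 148 under its hairpin, a fall of 1.16 on the log2 scale (limma adjusted p = 3.58e-07). The 48 h averages were 3783 ± 454 and 1669 ± 141, a fall of 1.17 (adjusted p = 6.15e-07). CHD4 fell with shCHD4#1 by 1.95 on the log2 scale at 24 h and 1.85 at 48 h, and with shCHD4#2 by 1.91 and 2.07. FLI1 also fell by 0.34 with shCHD4#2 at 48 h (adjusted p = 0.0291). CHD4 rose by 0.34 with shFLI1 at 24 h (limma adjusted p = 0.0176), and at 48 h its change was 0.18 (adjusted p = 0.139).

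In control cells the subunits spanned several orders of magnitude. Levels can be compared between genes only per kilobase of exon, and on that scale ITGB1, the shared beta subunit, was the highest of the 10, at 1462 ± 122 at 24 h and 1471 ± 59.0 at 48 h (SD, n = 5). ITGB5 came next at 1096 ± 109 and 1068 ± 77.0. ITGAV (689.5 ± 22.8 and 685 ± 70.5) and ITGA5 (623 ± 36 and 684 ± 124) followed with overlapping ranges at both times, so their order was not resolved. ITGA6 stood at 241 ± 33.5 and 236 ± 50.5, ITGA1 at 41.4 ± 4.87 and 38.2 ± 2.06, ITGA3 at 12.8 ± 2.51 and 16.6 ± 3.03, and ITGA2 at 4.81 ± 0.980 and 4.35 ± 0.707. Their ranges did not overlap, and neither did those of ITGB1 and ITGB5. ITGB3 and ITGA4 were each below 0.5 per kilobase on average.

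**Figure D1:**
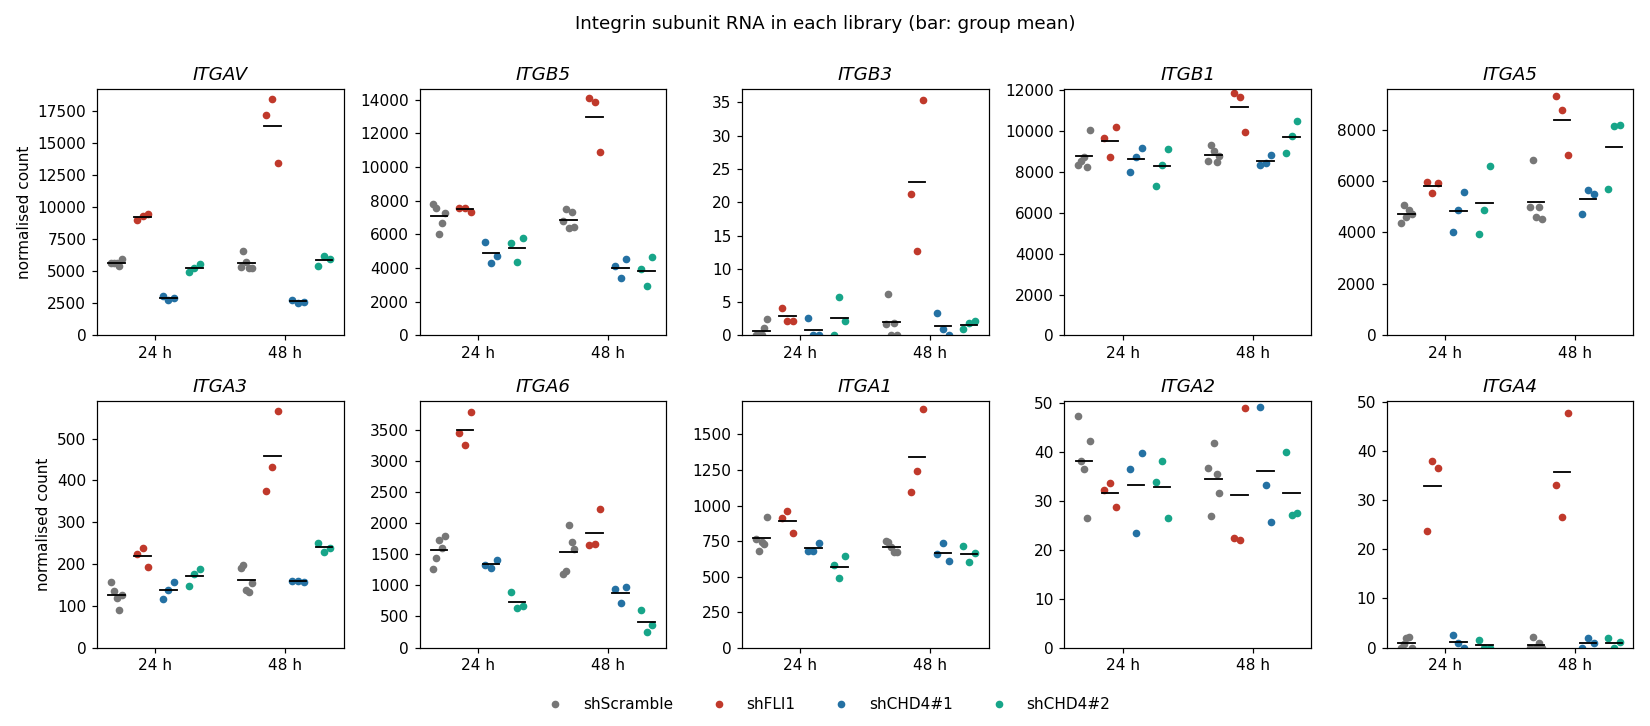
Normalised count of each integrin subunit (vertical axis, linear, its own scale per panel) in every library at 24 and 48 h, coloured by hairpin, with black bars for group means. ITGAV is at 13437 or more in the shFLI1 libraries at 48 h and at 3085 or less in those of shCHD4#1, and ITGA4 is at 23.8 or more with shFLI1 and at 2.60 or less elsewhere.

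Tests were made with limma on log2 of the normalised count plus 1, at an adjusted p of 0.05. With shFLI1 at 24 h, 3 of the 8 tested subunits rose (ITGA6, ITGA3, ITGAV) and none fell. In that comparison 46.7% of all genes tested were called, 24.2% as higher. With shFLI1 at 48 h, 6 of 8 rose (ITGAV, ITGA3, ITGB5, ITGA1, ITGA5, ITGB1) and none fell, where 63.9% of all genes were called and 32.2% were higher. The median change of the 8 was 0.80 at 48 h, against 0.01 over all genes. The share of members called in either direction at 48 h was near the background. All members called were higher, whereas calls over all genes were split between 32.2% higher and 31.7% lower. The members were chosen with earlier results of these data known, so their shared direction is not independent of that choice. In the authors' deposited table for 48 h, ITGAV and ITGA3 of these 6 passed. ITGA1 (adjusted p = 0.0614), ITGB5, ITGA5 and ITGB1 (adjusted p = 1 each) did not, with log2 changes of 0.99, 0.69, 0.42 and 0.24. The 4 members that table called were ITGAV, ITGA3, ITGA4 and ITGB3. Its p values are larger than a test against no change would give: the 0.69 of ITGB5 had an SE of 0.19. Its calls are thus not like for like with those of limma, and a call missing from it does not mean no change. The upper ends of the adjusted p ranges over 22 alternatives below come from it.

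With shCHD4#1 at 24 h, 2 of 8 fell (ITGAV, ITGB5), against a background of 11.3% called, 5.21% higher and 6.14% lower. At 48 h 3 fell (ITGAV, ITGB5, ITGA6), against 28.4% called and 15.5% lower. With shCHD4#2 at 24 h, 3 fell (ITGA6, ITGB5, ITGA1), against 11.1% called, 4.05% higher and 7.01% lower. At 48 h ITGA6 and ITGB5 fell and ITGA3 and ITGA5 rose, against 37.9% called, 17.5% higher and 20.3% lower. The members' medians with the CHD4 hairpins lay between -0.17 and -0.02. The knockdowns at each time share the same control libraries, so their values below are given side by side.

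**Figure D2:**
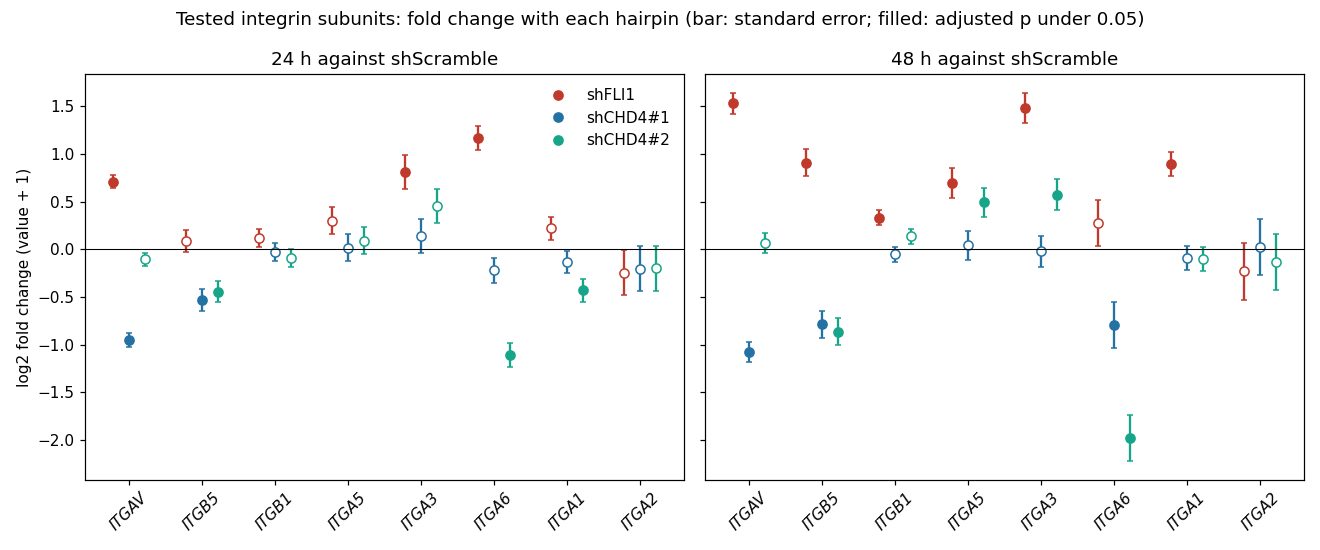
Log2 fold change against shScramble (vertical axis) of the 8 tested subunits with shFLI1, shCHD4#1 and shCHD4#2 at 24 h (left) and 48 h (right), with bars for the standard error and filled points for an adjusted p under 0.05. ITGAV is at 1.53 with shFLI1 and -1.08 with shCHD4#1 at 48 h, and ITGA6 reaches -1.98 with shCHD4#2.

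ITGAV encodes the alpha-v subunit, the common partner of the vitronectin receptors, and lies on chromosome 2 (186590065 to 186680901, plus strand, GENCODE release 29 on GRCh38, Ensembl gene ENSG00000138448). The control libraries held 5672, 5648, 5649, 5405 and 5934 normalised counts at 24 h and 5303, 6609, 5703, 5252 and 5272 at 48 h. With shFLI1 the values were 9009.5, 9302 and 9497 at 24 h and 17156, 18446 and 13437 at 48 h. Every shFLI1 library lay above every control library of its time. ITGAV rose 1.64-fold at 24 h (log2 0.71, SE 0.07, adjusted p = 1.93e-06) and 2.89-fold at 48 h (log2 1.53, SE 0.11, adjusted p = 1.77e-08), and the log2 change was larger at 48 h by 0.82 (SE 0.12, adjusted p = 3.81e-05). With second-kind libraries alone the changes were 0.71 and 1.58.

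The 2 CHD4 hairpins differed on ITGAV. With shCHD4#1 the values were 3085, 2793 and 2914 at 24 h and 2777, 2563 and 2627 at 48 h, all below every control library. With shCHD4#2 they were 4966, 5254 and 5563 at 24 h and 5444, 6231 and 5992 at 48 h. At 24 h 2 of these 3 lay below the lowest control, and at 48 h all 3 lay inside the control range. ITGAV thus fell with shCHD4#1 at both times (log2 -0.95, SE 0.07, adjusted p = 3.67e-06, and -1.08, SE 0.11, adjusted p = 1.14e-05). With shCHD4#2 its changes were -0.11 (95% interval -0.25 to 0.03) and 0.07 (-0.14 to 0.28), neither past the threshold. The difference between the hairpins was itself past it, at -0.84 at 24 h (adjusted p = 3.7e-05) and -1.15 at 48 h (adjusted p = 1.41e-05). Within the first kind ITGAV changed by -0.95 and -1.15 with shCHD4#1, and within the second kind by -0.96 and -1.04.

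ITGB5 encodes beta-5, which pairs with alpha-v in a vitronectin receptor, and lies on chromosome 3 (124761948 to 124901418, minus strand, ENSG00000082781). Its control values were 7778, 7572, 6053, 6678 and 7257 at 24 h and 6783, 7479.6, 6391, 7316 and 6447 at 48 h. With shFLI1 they were 7579.6, 7538 and 7342 at 24 h, inside the control range, and 14096, 13892 and 10910.5 at 48 h, all above it. ITGB5 did not pass the test at 24 h (log2 0.09, 95% interval -0.14 to 0.31) and rose at 48 h (log2 0.91, SE 0.14, adjusted p = 5.87e-05, a call absent from the authors' deposited table). The gain between the times was 0.82 (SE 0.19, adjusted p = 0.00304), the same size as that of ITGAV.

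ITGB5 was the member that fell with both CHD4 hairpins at both times. With shCHD4#1 the values were 5564, 4331 and 4743 at 24 h and 4111, 3382 and 4541 at 48 h. With shCHD4#2 they were 5511, 4341 and 5797 at 24 h and 3915, 2923 and 4680.1 at 48 h. All 12 lay below every control library of their time. The log2 changes at 24 h were -0.54 (adjusted p = 0.00792) and -0.44 (adjusted p = 0.0229), and at 48 h -0.79 (adjusted p = 0.00101) and -0.87 (adjusted p = 0.000305). The hairpins differed by -0.09 at 24 h (95% interval -0.34 to 0.16) and 0.08 at 48 h (-0.23 to 0.39), neither past the threshold. The 24 h calls depended on replicate 2 of each hairpin: without it the adjusted p was 0.0690 for shCHD4#1 and 0.169 for shCHD4#2. The shCHD4#2 call at 24 h was also lost with quantile normalisation (-0.33, adjusted p = 0.0871) and with only the groups compared (-0.44, adjusted p = 0.0709). Over 22 alternatives the adjusted p at 24 h ran from 0.000659 to 1 for shCHD4#1 and from 0.00696 to 1 for shCHD4#2. The 1 came from the authors' deposited table. At 24 h the single second-kind library of each hairpin differed from its controls by -0.49 and -0.20, and the first kind alone gave -0.64 and -0.65. At 48 h the second kind gave -0.56 and -0.52 and the first kind -0.93 and -1.07. The authors' deposited table called neither 48 h change (-0.75 and -0.83, SE 0.14 each, adjusted p = 1 and 0.487). Both values lie several SEs from 0, so that table's p values are not those of a test against no change.

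ITGAV and ITGB5 both rose with shFLI1 at 48 h and both fell with shCHD4#1. ITGA6 was called higher with shFLI1 at 24 h but not at 48 h, and it too fell with shCHD4#1 at 48 h. The stretches upstream of ITGAV, ITGB5 and ITGA6 are printed here. Each is the 250 bases before a RefSeq transcription start (GRCh38.p14), 5′ to 3′ on the gene's own strand, at chr2:186589806-186590055 (plus) for ITGAV, chr3:124901419-124901668 (minus) for ITGB5 and chr2:172427086-172427335 (plus) for ITGA6. RefSeq lists several starts for these genes (2, 3 and 2), and the start nearest to the 5′ end of the GENCODE gene was taken. Capitals mark GGAA on either strand (TTCC where it is on the other strand), the core letters read by the ETS factors, FLI1 among them.
ITGAV: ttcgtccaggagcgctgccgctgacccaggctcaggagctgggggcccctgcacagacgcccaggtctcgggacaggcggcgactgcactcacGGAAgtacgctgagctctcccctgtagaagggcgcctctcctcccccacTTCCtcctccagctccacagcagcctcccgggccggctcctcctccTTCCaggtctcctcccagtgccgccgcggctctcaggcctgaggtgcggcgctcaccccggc
ITGB5: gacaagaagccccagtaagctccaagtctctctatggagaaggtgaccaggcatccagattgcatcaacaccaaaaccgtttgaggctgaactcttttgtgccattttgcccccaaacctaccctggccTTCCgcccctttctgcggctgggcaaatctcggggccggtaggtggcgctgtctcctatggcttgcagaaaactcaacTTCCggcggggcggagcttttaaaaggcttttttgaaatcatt
ITGA6: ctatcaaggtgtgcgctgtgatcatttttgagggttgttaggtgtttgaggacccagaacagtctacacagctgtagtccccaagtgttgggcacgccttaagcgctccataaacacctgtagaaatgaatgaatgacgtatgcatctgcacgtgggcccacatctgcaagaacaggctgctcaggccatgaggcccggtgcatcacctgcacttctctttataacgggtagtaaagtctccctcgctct
ITGAV had 3 matches, ITGB5 had 2 and ITGA6 had 0. Among the other promoters found, ITGA5 had 6, ITGB1 had 4, ITGA1 had 3, and ITGA4 and ITGA2 had 2 each. The ITGB1 stretch (chr10:32958231-32958480, minus) lies well inside the GENCODE gene, whose 5′ end is at 33005792, so its matches are not those beside that end. ITGA6, with no match, and ITGA5, with the most, both had calls, and ITGA2 had none against the control. The motif is common: 92.7% of 35116 listed promoters of this length hold it, with a median of 3 matches. The paired run GGAAGGAA, which overlaps the single motif and is held by 3.06% of promoters, was in none of the 8 subunit promoters found (ITGA3 and ITGB3 had no entry). TGANTCA, the AP-1 core, was also in none of them (6.57% of all promoters). GGAATG, the TEAD core, which overlaps GGAA, was in those of ITGA5 and ITGB1 (11.9% of all promoters). All motifs were sought on both strands, and a match describes letters only.

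ITGB3, the beta-3 subunit and the other vitronectin partner of alpha-v, was almost absent from control cells. It lies on chromosome 17 (47253846 to 47311816, plus strand, ENSG00000259207). The control values were 0, 0, 0, 1.05 and 2.41 at 24 h and 1.79, 6.18, 0, 1.87 and 0 at 48 h. With shFLI1 they were 4.14, 2.23 and 2.21 at 24 h and 21.3, 12.6 and 35.3 at 48 h, the latter all above the control range. That is 63 reads in 3 shFLI1 libraries against 10 in 5 control libraries at 48 h, an 11.9-fold ratio per unit of depth (95% exact interval 6.06 to 26.0, counting error only). A two-sided exact permutation test of the libraries gave p = 0.0179, the smallest that 56 splits allow. At 24 h there were 8 reads against 3, a ratio of 4.90 (1.18 to 28.7) with an exact permutation p of 0.0714, and with the CHD4 hairpins at most 8 reads. The gene shares 51.6% of its exon bases with a same-strand gene, AC068234.1, whose row held 91 reads with shFLI1 and 10 in the controls at 48 h, so reads of the pair cannot be told apart.

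ITGB1 encodes beta-1, a partner of every alpha subunit described here (chromosome 10, 32900319 to 33005792, minus strand, ENSG00000150093). Of the 6 members called with shFLI1 at 48 h it had the smallest fold change. Control libraries held 8358, 8528, 8726, 8267 and 10068 counts at 24 h and 8541, 9348, 9033, 8500.4 and 8789 at 48 h. With shFLI1 they held 9657, 8740.2 and 10201 at 24 h, overlapping the controls, and 11858, 11662 and 9985 at 48 h, above all of them. ITGB1 rose 1.26-fold at 48 h (log2 0.33, SE 0.08, adjusted p = 0.00166), and its change at 24 h was 0.12 (95% interval -0.07 to 0.31). Neither CHD4 hairpin gave a call at either time. The values at 48 h were 8342, 8422 and 8816 with shCHD4#1 (log2 -0.05, 95% interval -0.20 to 0.10) and 8952, 9757 and 10495 with shCHD4#2 (0.14, -0.02 to 0.29). The hairpins differed by -0.19 at 48 h (adjusted p = 0.101), and by -0.25 without shCHD4#2 replicate 1 (adjusted p = 0.0445). Quantile normalisation called ITGB1 with shFLI1 at 24 h (0.29, adjusted p = 0.00488) and with shCHD4#2 at 48 h (0.29, adjusted p = 0.00556).

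ITGA5 encodes the alpha subunit of the fibronectin receptor (chromosome 12, 54395261 to 54419460, minus strand, ENSG00000161638). The controls held 4350.2, 5071, 4590.2, 4864 and 4725 counts at 24 h and 4987, 6824, 4584, 4999 and 4529.7 at 48 h, where replicate 2 stood apart from the other 4. With shFLI1 the values were 5966, 5529 and 5941 at 24 h and 9320.0, 8749 and 7017 at 48 h, above the controls at both times. ITGA5 rose at 48 h (log2 0.70, SE 0.15, adjusted p = 0.00107), while its 0.30 at 24 h missed the threshold (adjusted p = 0.0933). It passed at 24 h in 3 of 20 alternatives, with second-kind libraries alone (adjusted p = 0.00966), quantile normalisation (0.44, adjusted p = 0.0133) and only the groups compared (adjusted p = 0.0153), and in all 20 the adjusted p ran from 0.00966 to 0.212.

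With shCHD4#2 ITGA5 had 5677, 8142 and 8166 counts at 48 h, against 4719.8, 5634 and 5515 with shCHD4#1. The shCHD4#2 rise (log2 0.50, SE 0.15, adjusted p = 0.0192) did not hold with the replicate number as a block (0.42, adjusted p = 0.0522). It was lost too without replicate 2 or 3 of the hairpin (adjusted p = 0.106 and 0.0941), and over 22 alternatives the adjusted p ran from 0.00328 to 1. Its change was 0.22 within the first kind and 0.80 within the second. At 24 h both hairpins spread widely, with 3932, 4869.6 and 6602 counts for shCHD4#2 and 4011, 4855 and 5592 for shCHD4#1. The difference between the hairpins at 48 h, -0.45, was at adjusted p = 0.0483 and was lost when any of 5 of the 6 libraries was left out, the exception being replicate 1 of shCHD4#2 (adjusted p from 0.0085 to 0.244 over 19 alternatives).

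ITGA6 encodes a laminin-binding subunit that pairs with beta-1 or beta-4 (chromosome 2, 172427354 to 172506282, plus strand, ENSG00000091409). Its time course ran against the other members that rose. The controls held 1267, 1446, 1733, 1611 and 1806 counts at 24 h and 1187, 1240.1, 1976, 1706 and 1592 at 48 h. With shFLI1 the values were 3467, 3270.0 and 3801 at 24 h, all above the controls, and 1656, 1672 and 2234 at 48 h, overlapping them. ITGA6 rose 2.25-fold at 24 h (log2 1.17, SE 0.13, adjusted p = 5.4e-06) and at 48 h had a change of 0.28 (95% interval -0.19 to 0.75, adjusted p = 0.323). The change was smaller at 48 h by 0.89 on the log2 scale (SE 0.29, adjusted p = 0.0349). That call was lost, with adjusted p from 0.0524 to 0.0899, when any of 9 of the 16 libraries was left out: shScramble replicates 1 and 2 and shFLI1 replicates 1 and 3 at 24 h, and shScramble replicates 3, 4 and 5 and shFLI1 replicates 1 and 2 at 48 h. In the second kind alone the changes were 1.03 at 24 h and 0.07 at 48 h.

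ITGA6 fell furthest of the members with shCHD4#2. The values were 892, 632 and 669.6 at 24 h and 609, 250.3 and 364 at 48 h, below every control library. With shCHD4#1 they were 1322, 1284 and 1418 at 24 h, within the control range, and 946, 716 and 970.4 at 48 h, below it. ITGA6 fell with shCHD4#2 by 1.11 on the log2 scale at 24 h (SE 0.13, adjusted p = 0.000137) and 1.98 at 48 h (SE 0.24, adjusted p = 2.77e-05). At 48 h that was 3.95-fold lower, at 408 ± 184 against 1540.1 ± 329.8. With shCHD4#1 the change was -0.22 at 24 h (95% interval -0.47 to 0.04) and -0.80 at 48 h (SE 0.24, adjusted p = 0.0235). The latter was lost without shScramble replicate 3 (adjusted p = 0.0540) or shCHD4#1 replicate 2 (adjusted p = 0.124), with the adjusted p of 22 alternatives between 0.00538 and 1. The hairpins differed by 0.89 at 24 h (adjusted p = 0.00181) and 1.19 at 48 h (adjusted p = 0.00356), the latter being 1.07 in the first kind (adjusted p = 0.105). The changes with shCHD4#2 were -0.85 and -1.63 within the first kind, and -1.36 and -2.26 in the 1 second-kind library of each time. With shCHD4#1 at 48 h they were -0.56 and, in 1 library, -0.85. The authors' deposited table did not call the 24 h change with shCHD4#2 (-0.93, adjusted p = 1).

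ITGA3 encodes the other laminin-binding alpha subunit (chromosome 17, 50055968 to 50090481, plus strand, ENSG00000005884). It was a low gene in control cells, with 158, 135, 119, 89.6 and 125 counts at 24 h and 191, 197, 138, 133 and 155 at 48 h, where the 2 higher values belonged to the first kind. With shFLI1 it held 223, 239 and 192 at 24 h and 374, 431 and 567 at 48 h, above the controls at both times. ITGA3 rose 1.76-fold (log2 0.81, SE 0.18, adjusted p = 0.00168) and 2.80-fold (log2 1.48, SE 0.16, adjusted p = 1.8e-06). The gain between the times, 0.67, was at adjusted p = 0.0542, and at 0.0168 to 0.188 over 28 alternatives. In the second kind alone the changes were 0.97 and 1.66.

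At 48 h ITGA3 had 251, 229 and 238 counts with shCHD4#2 and 159, 159 and 157 with shCHD4#1. It rose with shCHD4#2 (log2 0.57, SE 0.16, adjusted p = 0.0124), but with the replicate number as a block the change was 0.46 (adjusted p = 0.0804, and 0.00612 to 1 over 22 alternatives). At 24 h the values were 148, 175 and 187 with shCHD4#2 and 115, 138 and 157 with shCHD4#1, with no call. Within the first kind the 48 h change was 0.31 and within the second 0.74. The hairpins differed by -0.59 at 48 h (adjusted p = 0.0184), and by -0.59 in the first kind (adjusted p = 0.0906). The single second-kind libraries of the hairpins differed by -0.60.

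ITGA1 and ITGA2 encode the collagen-binding alpha subunits and lie side by side on chromosome 5 (52787896 to 52959210 and 52989326 to 53094779, both on the plus strand, ENSG00000213949 and ENSG00000164171). ITGA1 held 762, 682, 744, 732 and 921 counts in controls at 24 h and 751, 745, 705, 673 and 671 at 48 h. With shFLI1 it held 912, 963 and 804 at 24 h, overlapping the controls, and 1098, 1239.7 and 1678 at 48 h, above them. It rose at 48 h (log2 0.89, SE 0.12, adjusted p = 1.95e-05), with 0.22 at 24 h (95% interval -0.01 to 0.45). Of 20 alternatives at 24 h, 1 passed the threshold, that without shScramble replicate 5, the highest control (0.29, adjusted p = 0.0445, with the others up to 0.383). The gain between the times was 0.67 (SE 0.17, adjusted p = 0.00651).

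With shCHD4#2 ITGA1 had 579, 487 and 644 counts at 24 h, below every control, and a change of -0.43 (SE 0.12, adjusted p = 0.0297). That call was lost with the replicate block (-0.36, adjusted p = 0.0596), without shScramble replicate 1 or 5 (adjusted p = 0.0506 and 0.0504) and without shCHD4#2 replicate 1 or 2 (adjusted p = 0.0632 and 0.197). Over 22 alternatives its adjusted p ran from 0.0054 to 1, and the changes within the kinds were -0.44 and -0.30. At 48 h the values were 716, 604 and 662, overlapping the controls (log2 -0.10, 95% interval -0.35 to 0.14). With shCHD4#1 no time gave a call, with 679.9, 679 and 737 counts at 24 h and 656, 734 and 613 at 48 h. ITGA2 held 47.3, 38.1, 36.4, 26.4 and 42.1 counts in controls at 24 h and 36.6, 26.8, 41.7, 35.5 and 31.6 at 48 h. With shFLI1 it held 22.4, 21.8 and 48.8 at 48 h, with a log2 change of -0.23 (95% interval -0.81 to 0.35). It stayed between 21.8 and 49.0 counts in all 28 libraries, and no main comparison called it. With quantile normalisation its change with shFLI1 at 48 h was -0.68 (adjusted p = 0.0461), the exception among its alternatives.

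ITGA4, the VCAM1-binding alpha subunit best known from leukocytes, was near 0 outside the shFLI1 libraries (chromosome 2, 181457202 to 181536187, plus strand, ENSG00000115232). Controls held 0, 0.810, 2.02, 2.11 and 0 counts at 24 h and 0, 2.06, 0, 0.933 and 0 at 48 h. With shFLI1 the values were 23.8, 38.0 and 36.5 at 24 h and 33.1, 26.4 and 47.8 at 48 h, with no overlap. These were 90 reads against 5 at 24 h, a ratio of 33.1 per unit of depth (95% exact interval 13.7 to 104), and 97 against 3 at 48 h, a ratio of 61.1 (20.3 to 301). The exact permutation p was 0.0179 at each time, the smallest that 56 splits allow. With the CHD4 hairpins ITGA4 had 2 to 4 reads per group. Among 5 leukocyte markers, PTPRC moved with it (47.1 ± 10.5 in controls and 313 ± 31.8 with shFLI1 at 24 h, and 43.8 ± 3.49 and 173 ± 47.8 at 48 h), while CD3E was at or near 0 in every group and CD14 averaged at most 10.3. The sum of the 5 ran from 43.6 to 63.8 in controls and from 278 to 339.5 with shFLI1 at 24 h, and from 47.6 to 55.7 and 126.5 to 229 at 48 h. The part of such cells in the result was not tested.

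A direct comparison of shFLI1 with the mean of both CHD4 hairpins at 48 h called 7 of the 8 tested members higher with shFLI1 and none lower, where 65.7% of all genes were called, 32.9% higher and 32.8% lower. The differences were 2.04 for ITGAV (adjusted p = 9.08e-10), 1.73 for ITGB5, 1.67 for ITGA6, 1.21 for ITGA3, 0.99 for ITGA1, 0.43 for ITGA5 and 0.29 for ITGB1. ITGA2 was the exception (-0.18, adjusted p = 0.606). Those of ITGA5 and ITGB1 were lost when each library was centred on its median (0.29 and 0.16, adjusted p = 0.0985 and 0.0747), which moved the median of all genes to -0.13. ITGA5 was also lost without shFLI1 replicate 1 or 2 (adjusted p = 0.100 and 0.0725), and ITGB1 in the second kind alone, which holds 1 library of each CHD4 hairpin (0.21, adjusted p = 0.0529). Over 21 alternatives the adjusted p was 0.00823 to 0.100 for ITGA5 and 6.82e-05 to 0.0747 for ITGB1. The CHD4 hairpins were themselves called different at 48 h on ITGAV, ITGA6, ITGA3 and ITGA5, so their mean stands for neither hairpin there. With shCHD4#2 alone, ITGA5 (5677 to 8166) overlapped its shFLI1 values (7017 to 9320). The ITGB1 values with shCHD4#2 (8952 to 10495) overlapped those with shFLI1 (9985 to 11858) too.

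Of the changes between 24 and 48 h with shFLI1, 3 were higher (ITGAV, ITGB5, ITGA1) and 1 lower (ITGA6), where 16.7% of all genes were called, 7.22% as higher and 9.44% as lower. For the mean of both CHD4 hairpins no member was called, and 0.00% of all genes were, although 1819 genes and 2 of the 8 members (ITGA6 at -0.73 and ITGB5 at -0.34) had an unadjusted limma p under 0.05. edgeR called 0 genes there and DESeq2 110. Without shCHD4#2 replicate 1 at 48 h, limma called 137 genes and ITGA6 (-0.89, adjusted p = 0.0396). Between the 2 CHD4 hairpins, 2 members were called at 24 h (ITGAV, ITGA6), where 9.62% of genes were (5.62% higher with shCHD4#1 and 4% lower), and 4 at 48 h (ITGAV, ITGA6, ITGA3, ITGA5), where 37.9% of genes were. With the replicate block the genes called between the hairpins at 24 h went from 2022 to 3482, with the same 2 members past the threshold.

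The balance of subunits shifted with these changes. Summed per kilobase, the 7 alpha subunits stood at 0.632 ± 0.0382 of the 3 beta subunits in controls at 24 h and 0.654 ± 0.0407 at 48 h. With shFLI1 the ratio was 0.915 ± 0.0185 and 0.905 ± 0.0198, above every control library. With shCHD4#1 it was 0.572 ± 0.0391 and 0.595 ± 0.0356, and with shCHD4#2 0.677 ± 0.0391 and 0.820 ± 0.0960. The shCHD4#2 libraries at 48 h (0.751 to 0.930) also lay above every control library (at most 0.721) and overlapped those of shFLI1 (0.883 to 0.921). ITGAV made up 41.2% ± 0.929 of the alpha level in controls at 48 h, 56.6% ± 3.07 with shFLI1 and 26.7% ± 2.03 with shCHD4#1. ITGA5 then held the largest alpha share with either CHD4 hairpin, 57.5% ± 3.64 and 53.1% ± 4.75, against 40.9% ± 3.61 in controls. On the beta side ITGB5 went from 42.0% ± 1.88 in controls to 51.8% ± 1.27 with shFLI1, above ITGB1, and to 30.4% ± 2.77 and 26.7% ± 4.24 with the CHD4 hairpins. These shares are of RNA per exon length, and no test was made on them.

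**Figure D3:**
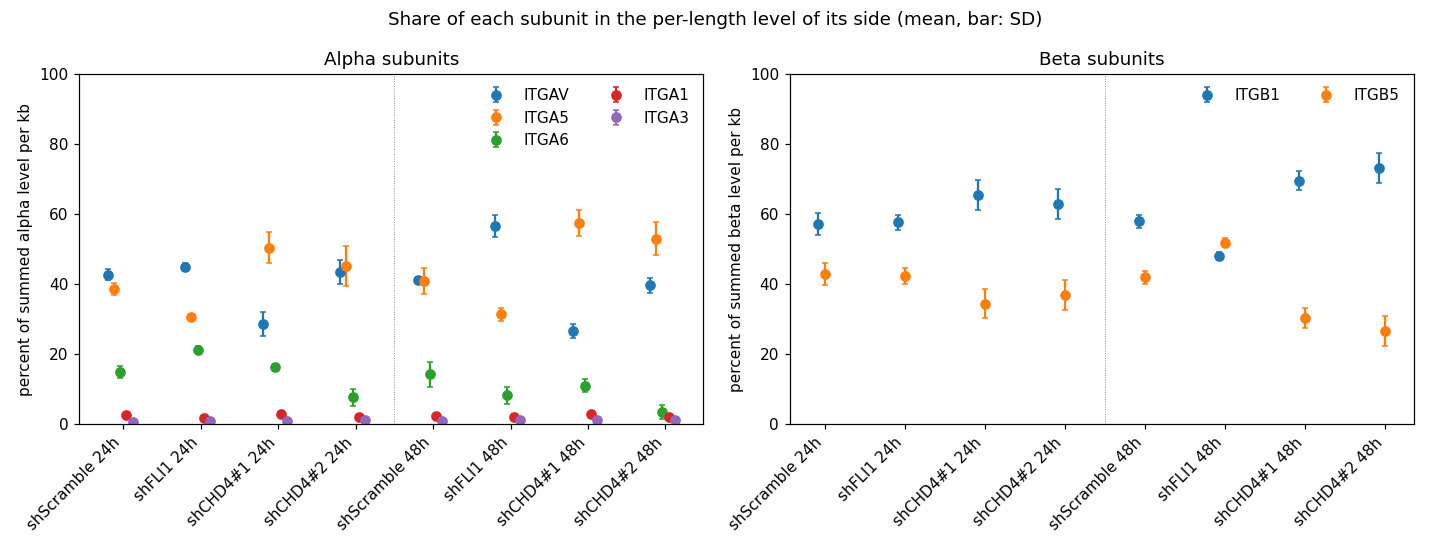
Share of each subunit in the summed per-kilobase level of the alpha subunits (left) and beta subunits (right), in percent, for the 8 groups, as mean with bars for the SD over libraries. ITGA2, ITGA4 and ITGB3, each under 0.4% on average, are not drawn, and ITGB5 exceeds ITGB1 in 1 group, shFLI1 at 48 h, at 51.8% against 48.0%.

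Across the 28 libraries the members formed no single block. ITGAV and ITGB5 had a Pearson r of 0.79 on the log2 scale, ITGA5 and ITGB1 0.85, ITGA3 and ITGA5 0.77, and ITGA5 and ITGA6 -0.20. These libraries share their hairpin groups, so the values describe the group pattern. By the same measure the non-member genes most like each member were LRRC8C, a volume-regulated channel subunit, and the microRNA gene MIR198, which overlaps FSTL1 and may hold its reads, for ITGAV (both r = 0.97), CAPN2, a calpain protease, and AL358113.1 for ITGB5 (0.95 and 0.96), and the cohesin subunits RAD21 and STAG2 for ITGA6 (0.94 and 0.93). ITGA3 was most like RAPGEF2 and NABP1 (0.91 each), ITGA1 like ATP1B1 and FRMD6 (0.90 and 0.89), ITGA5 like AJUBA and AL132780.3 (0.90 and 0.89), and ITGB1 like ILK, the integrin-linked kinase (0.86). For ITGA2 the highest r was 0.61, with MEGF11.

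Of the 16 other integrin subunits, 11 were tested. With shFLI1 at 48 h 6 rose and 3 fell, and at 24 h 4 rose and 2 fell. Over all genes, 32.2% were called higher and 31.7% lower at 48 h, and 24.2% and 22.5% at 24 h. ITGA7, a laminin receptor subunit of muscle, rose with all 3 knockdowns at 48 h, from 278 ± 42.5 in controls to 1103 ± 254 with shFLI1 (log2 1.97, adjusted p = 6.96e-08), 998 ± 53.7 with shCHD4#1 (1.85, adjusted p = 3.41e-06) and 828 ± 137 with shCHD4#2 (1.57, adjusted p = 5.49e-06). ITGB8, another beta partner of alpha-v, rose with shFLI1 and fell with both CHD4 hairpins. From 141 ± 34.3 it rose to 539 ± 56.1 with shFLI1 (log2 1.95, adjusted p = 3.71e-07) and fell to 49.6 ± 6.0 and 71.7 ± 6.28 with the CHD4 hairpins (-1.47 and -0.94, adjusted p = 6.58e-05 and 0.00109). ITGB2, the leukocyte beta subunit, fell from 645 ± 139 to 199 ± 2.74 with shFLI1 (log2 -1.67, adjusted p = 2.67e-07), and ITGAE fell from 1133 ± 117 to 658 ± 30.3 (-0.78). ITGB4, the beta partner of ITGA6, rose with shFLI1 (0.89, adjusted p = 0.00325) and shCHD4#2 (0.90, adjusted p = 0.00635) from a low 42.3 ± 8.54. With shCHD4#1 at 48 h 2 rose and 1 fell, and with shCHD4#2 4 rose and 4 fell. The shares of all genes called there were 28.4% and 37.9%.

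The cytoplasmic side of the adhesion machinery, 30 adaptors and focal adhesion genes, had 29 tested. That list was chosen with earlier results of these data known. With shFLI1 at 48 h 21 rose and 4 fell, with a median of 0.68 against 0.01 for all genes, and at 24 h 13 rose and 5 fell. Of all genes 32.2% were called higher and 31.7% lower at 48 h, and 24.2% and 22.5% at 24 h. The kindlins, which bind beta tails, moved oppositely: FERMT2 rose from 1366 ± 106 to 5717 ± 708 (log2 2.06, adjusted p = 1e-09) and FERMT1 fell from 1303 ± 160.2 to 269.7 ± 49.2 (-2.28, adjusted p = 4.84e-09). TLN2, a talin, rose from 3020 ± 187 (log2 2.52, adjusted p = 9.72e-09), and TES, the focal adhesion protein testin, rose from 182 ± 36.2 to 1793 ± 372 (3.30, adjusted p = 1.76e-09). With shCHD4#1 at 48 h 3 rose and 4 fell, where 12.9% of all genes were called higher and 15.5% lower. With shCHD4#2 10 rose and 5 fell, where 17.5% of all genes were called higher and 20.3% lower. FERMT2 and PDLIM7, the genes of the list with the smallest p over both CHD4 hairpins, fell with shCHD4#1 (-0.55 and -0.44) and rose with shCHD4#2 (0.76 and 0.43).

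Of 20 regulators of integrin activity and traffic, 18 were tested, with no common direction. With shFLI1 at 48 h 5 rose and 7 fell (median -0.21). That is near the share of all genes called, 63.9%, with 32.2% higher and 31.7% lower. DAB2, an endocytic adaptor for integrins, rose from 626 ± 241 to 4935 ± 1213 (log2 3.02, adjusted p = 8.35e-08), and CD63, a tetraspanin, rose by 0.81. ITGB3BP fell by 0.63 and ITGB1BP2, a binding partner of the beta-1 tail, by 0.78. CD63 rose with both CHD4 hairpins as well (0.44 and 0.79), whereas ITGB1BP2 rose with shCHD4#1 (0.66) and fell with shCHD4#2 (-0.63). At 24 h 4 rose and 3 fell with shFLI1, and the CHD4 hairpins gave 1 rise and 2 falls each. The shares of all genes called there were 46.7% with shFLI1, 11.3% with shCHD4#1 and 11.1% with shCHD4#2.

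Extracellular ligands, a list chosen with earlier results of these data known, rose more often than they fell with shFLI1. Of 30 ligands 27 were tested, and 20 rose and 2 fell at 48 h, with a median of 1.55. At 24 h 14 rose and 4 fell (median 0.56). Calls over all genes were 32.2% higher and 31.7% lower at 48 h, and 24.2% and 22.5% at 24 h. FN1, the fibronectin that ITGA5 and ITGAV bind, rose from 30076 ± 4034 to 377861 ± 100570.0 (log2 3.63, adjusted p = 6.16e-10). THBS1, thrombospondin 1, rose from 355 ± 46.8 to 3547 ± 1078 (3.28), NPNT, nephronectin, from 70.6 ± 20.9 to 726 ± 138 (3.38), and LAMB1, a laminin chain, from 9908 ± 1347 to 27355 ± 2877 (1.47). Of 5 fibroblast markers, 5 had a mean of at least 10 with shFLI1 at 48 h and 1 had in controls, while their sum was 612 to 972 counts against 766 to 1759. The part of such cells in the result was not tested. With shCHD4#1 at 48 h 3 rose and 3 fell, and with shCHD4#2 5 rose and 4 fell, where 28.4% and 37.9% of all genes were called. LAMA5, a laminin chain, rose with both CHD4 hairpins (1.00 and 0.75), and CCN2 fell with shCHD4#1 (-2.06) and rose with shCHD4#2 (1.72).

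**Figure D4:**
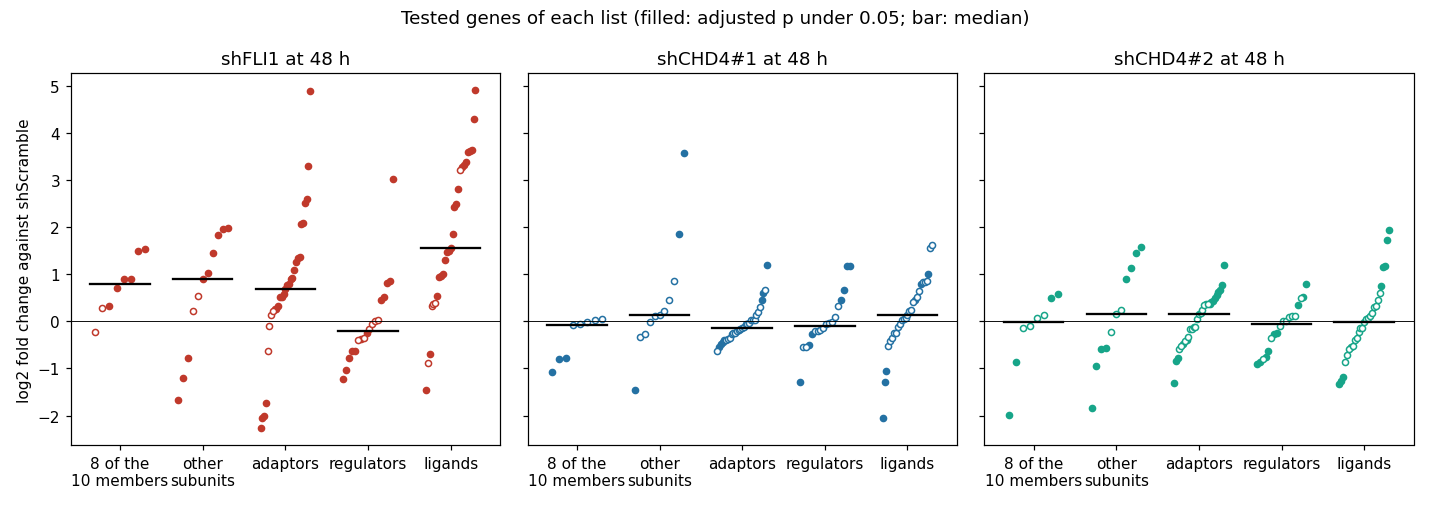
Log2 fold change against shScramble at 48 h (vertical axis) of each tested gene in 5 lists for shFLI1, shCHD4#1 and shCHD4#2, sorted within a list, with filled points for an adjusted p under 0.05 and bars for list medians. With shFLI1 the medians of the integrin members, adaptors and ligands are 0.80, 0.68 and 1.55, and with the CHD4 hairpins all 5 medians lie between -0.15 and 0.16.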

How the data were processed

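RNA came from 28 libraries (stranded total RNA kit, paired ends, per the labels' protocols). The submitters' processing notes name GRCh38, DESeq2 1.34.0, featureCounts 1.6.0, HISAT2 2.1.0, SAMtools 1.7 and FastQC 0.11.7. Whether counting used strand is not given in the sources used here. Deposited values were a signal, each gene's read count over its library's size factor, beside tables of log2 fold changes, p-values and, in 1 table, a test score. Whole reads were recovered for 100% of values within 0.02. A deposited table whose name gives shFLI1 at 24 h proved to compare the control times, so it gave no shFLI1 value.

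Tests were run with limma 3.58.1 (trend option) in R 4.3.3 on log2(value + 1) for 21025 genes with a mean of at least 10, each time with its 4 groups, and all 28 libraries for changes between times. P values were two-sided and adjusted by Benjamini-Hochberg over all genes tested. Such fold changes understate those of low genes. edgeR 4.0.16 and DESeq2 1.42.0 were run on recovered reads, and the other alternatives are described after the results. The test was checked on simulated data. Same-numbered libraries of shScramble and the CHD4 hairpins deviated together (r from 0.119 to 0.548). Those of shScramble and shFLI1 did not (-0.15 to 0.0449). In the control and CHD4 libraries the replicate number goes with library kind, so pairing and kind cannot be told apart in these r. The main tests used no pairing, and the replicate block was run as an alternative.

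In all 38 within-group pairs the libraries differed by more than sampling noise. Intervals of read ratios cover counting error only. Intervals of log2 changes used a normal multiplier on the SE. They are slightly narrower than the t distribution of the limma test would give. The members and gene lists were chosen with earlier results of these data known. The 10 members are always named, and other integrin subunits that reached the mean of 10 could be. Of each other list up to 4 genes with the smallest adjusted p with shFLI1 at 48 h were named, and 2 by the larger adjusted p of both CHD4 hairpins. The 2 genes most like each member (mean of at least 100) were found by Pearson r over 28 libraries, and some genes that the rules select are not reported here. Marker genes and FLI1 and CHD4 are checks.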

Additional observations from a re-analysis of the deposited data

Results flagged for a closer look

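In the 5 control libraries of a time, a value was marked when its gap to the nearest other exceeded 0.71 of the whole range (Dixon's 95% critical value). Of 20 such groups, 2 were marked, where chance marks about 1 in 20. ITGA5 at 48 h was marked for shScramble replicate 2, at 6824 counts, with a gap of 0.796 of the range. ITGB1 at 24 h was marked for shScramble replicate 5, at 10068 counts, with a gap of 0.745.

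The shFLI1 effect differed between 24 and 48 h by the test of the difference itself for 4 members, with log2 differences of 0.67 for ITGA1, -0.89 for ITGA6, 0.82 for ITGAV and 0.82 for ITGB5. ITGA1, ITGAV and ITGB5 changed more at 48 h and ITGA6 more at 24 h.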

How the results depend on the processing

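The alternatives were other pseudocounts, filters and scalings, only the groups compared, the replicate block, a term for library kind, either kind alone, edgeR, DESeq2, the authors' deposited table and each library left out. The first kind alone was chosen after seeing the data. No member's called change reversed. Members called differed from the main count by over 1.5 times in these cases: with shFLI1 at 24 h, 5 with quantile normalisation. With shCHD4#1 at 24 h, 1 in the second kind and 1 in the authors' deposited table. With shCHD4#2 at 24 h, 1 with only the groups compared and 0 in that table. With shCHD4#1 at 48 h, 1 in it, and with shCHD4#2 at 48 h 2 in the first kind and 1 in it. Between the hairpins at 48 h, 1 in the first kind. Calls in that table are not like for like with the others, because its p values are larger than a test against no change gives. The threshold form of its test is not given in the sources used here. Genes called went from 2385 (shCHD4#1 at 24 h) to 1499 with only the groups compared, 4531 with the kind term, 1010 in the second kind and 192 in the deposited table, and from 2325 (shCHD4#2) to 1267, 4684, 751 and 147. At 48 h they went from 13429 (shFLI1) to 5840 in that table, from 5965 (shCHD4#1) to 948 and from 7964 (shCHD4#2) to 1543, and in the first kind to 1215 and 2974 for the CHD4 hairpins. Between the hairpins they went from 2022 at 24 h to 1245 (only the groups), 4455 (kind term) and 283 (second kind), and from 7963 at 48 h to 2889 (first kind). For the shFLI1 change between times they went from 3503 to 5592 (kind term) and 5274 (second kind), and for the CHD4 hairpins from 0 to 3 (quantile), 96 (kind term), 4 (second kind) and 110 (DESeq2). The second kind holds 1 library of each CHD4 hairpin at each time, which is assumed there to vary like the other groups. The cause was not tested.

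With the replicate block, members called with shCHD4#2 at 48 h were 2, and genes called between the hairpins at 24 h were 3482. The shFLI1 libraries did not deviate together with the same-numbered controls. Under the block the change of ITGA1 between times was 0.55 (adjusted p = 0.0592). The block ended no other member's call than these and those given with the results.

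With each library left out in turn, genes called ranged from 7771 to 10029 and members from 3 to 4 (shFLI1 at 24 h), 908 to 2851 and 1 to 2 (shCHD4#1 at 24 h), 886 to 2321 and 1 to 3 (shCHD4#2 at 24 h), 12115 to 13512 and 6 to 6 (shFLI1 at 48 h), 3699 to 6488 and 2 to 3 (shCHD4#1 at 48 h), and 5296 to 8294 and 3 to 4 (shCHD4#2 at 48 h). Between the hairpins they ranged from 874 to 1721 and 2 to 2 at 24 h and from 5792 to 8648 and 3 to 5 at 48 h. For shFLI1 against both CHD4 hairpins the ranges were 12429 to 13752 and 6 to 7, for the shFLI1 change between times 2499 to 4015 and 3 to 5, and for that of the CHD4 hairpins 0 to 137 and 0 to 1. The lowest counts of both CHD4 hairpins at both times came without their replicate 2, and that between the hairpins at 24 h without shCHD4#1 replicate 2. ITGA4 and ITGB3 are limited by depth, with at most 97 reads in any group.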
